A study of Mus musculus with 8 samples.

Results

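The enzymes that keep adenosine triphosphate (ATP) available in muscle were examined as 10 listed genes: Ckm, Ak1, Pygm, Phka1, Pfkm, Aldoa, Pgam2 and Eno3, with Ckb and Eno1 as non-muscle partners of Ckm and Eno3. Members were all probe sets whose platform annotation names exactly 1 gene from this list. They were 17 probe sets for 9 of the 10 genes, among 34945 probe sets that name 1 gene and 18193 genes in all. No probe set named Eno1 alone in the annotation used, so Eno1 was not analysed here. Whole tongue buds, the embryonic tissue that forms the tongue, were measured at embryonic day 13.5 (E13.5) on one-colour arrays, and the values are log2 expression. Mutant embryos (n = 4) carried Wnt1-Cre together with Alk5 fl/fl, and control embryos (n = 4) carried Alk5 fl/fl without Cre. All 8 samples were labelled as strain C57BL/6J, and embryo sex was not determined. Wnt1-Cre drives Cre recombinase in cranial neural crest cells, so Alk5, the type I TGF-beta receptor, is inactivated in the crest-derived mesenchyme and its other crest derivatives. The muscle precursors of the tongue come from the mesoderm, outside the reach of this Cre line. No group carried Wnt1-Cre without the homozygous floxed allele, so what the Cre transgene does and what loss of Alk5 does cannot be told apart. The series asked how loss of TGF-beta signalling in the neural crest affects its interaction with the myogenic precursors. The labels do not say that the numbered buds came from separate litters, so the p-values measure the spread between these samples.

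A contracting muscle cell can use ATP faster than respiration can replace it. Creatine kinase passes phosphate from phosphocreatine to ADP, and adenylate kinase makes ATP from a pair of ADP molecules. Glycogen phosphorylase, switched on by phosphorylase kinase, releases glucose from glycogen, and the enzymes of glycolysis turn it into pyruvate. Several of these steps have an isoform that skeletal muscle makes as its fibres differentiate, beside an isoform used by most other cells.

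In mutant tongue buds 3 of the 9 measured genes fell, Pgam2 by 1.72-fold, Ak1 by 1.59-fold and Pygm by 1.40-fold, and 0 rose. Their calls come from limma over all 18193 genes at a Benjamini-Hochberg adjusted p of 0.05, where 5.52% of all genes were called lower and 4.2% higher. Tested as 17 probe sets over all 34945, 3 were lower and 0 higher, against 3.25% and 2.69% of all probe sets. In each of these 3 genes all 4 mutant values lay below all 4 control values, a position held by 8.87% of all genes. Eno3, Ckm, Ckb and Aldoa had lower means in mutants but did not pass, and Pfkm and Phka1 lay close to their control levels. At an unadjusted limma p under 0.05, 7 of the 9 were lower and 0 higher, against 12.5% of all genes lower. The median log2 change of the 9 was −0.45, beside −0.01 over all genes. The members were chosen with earlier results of these data known, so the shares over all genes are given for scale only. In whole buds, fewer muscle cells and less RNA per muscle cell cannot be told apart.

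**Figure D1:**
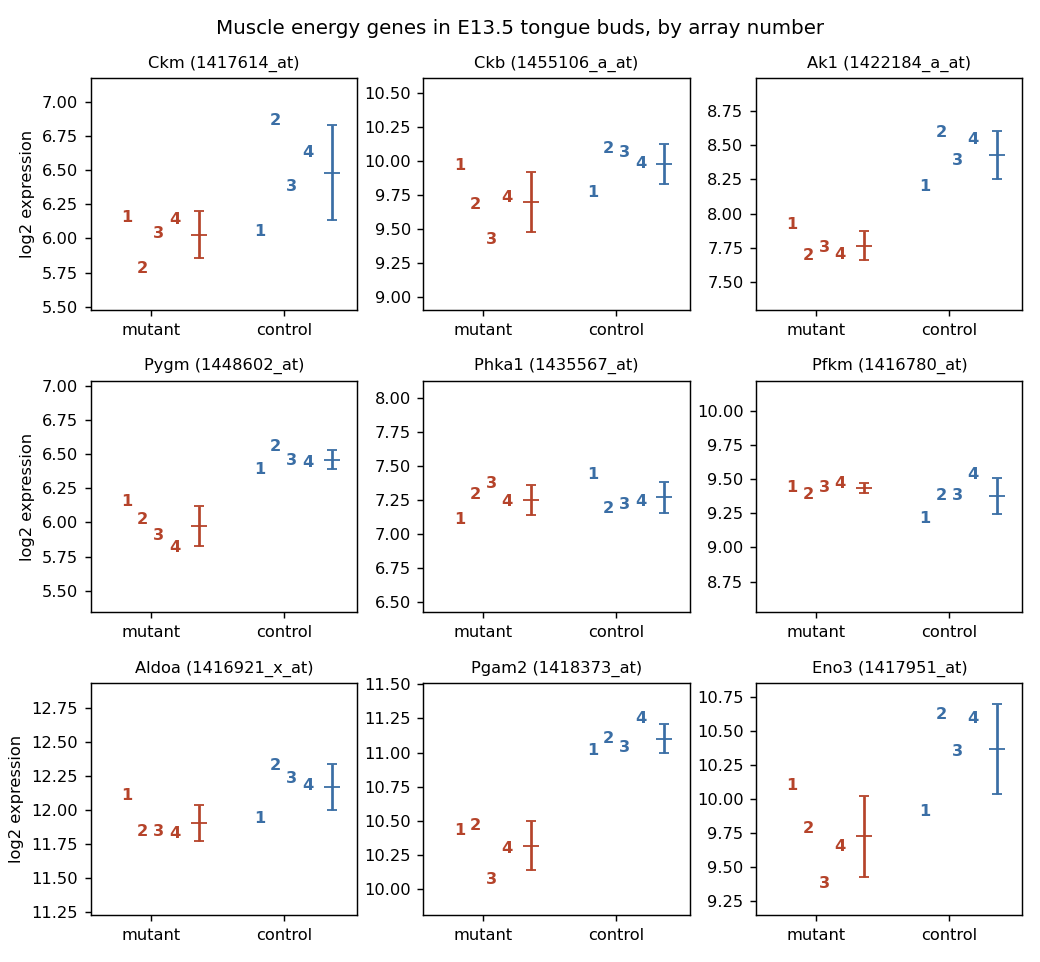
Log2 expression (y axis) of the brightest probe set of each of the 9 measured genes in mutant and control tongue buds. Numbers are the arrays of each group, bars are mean ± SD (n = 4), and every panel spans the same height on the log2 scale. Mutant and control arrays do not overlap for Ak1, Pygm and Pgam2, and control 1 lies low among the controls for Ckm, Ckb, Aldoa and Eno3.

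Of the enzymes that buffer ATP, Ak1 fell while the creatine kinases did not pass. Ak1 encodes the cytosolic adenylate kinase of muscle, which is also made in red blood cells and brain. Its brighter probe set, 1422184_a_at, read 7.92, 7.69, 7.75 and 7.70 in mutants 1 to 4, against 8.20, 8.59, 8.39 and 8.54 in controls 1 to 4. The highest mutant lay below the lowest control, and the means were 7.76 ± 0.11 in mutants and 8.43 ± 0.18 in controls (SD, n = 4 each). The log2 change was −0.67 (SE 0.092, limma adjusted p = 0.00235). The other Ak1 probe set, 1423988_at, read 4.27 to 4.33 in mutants and 4.26 to 4.47 in controls, below the array medians of 5.96 to 6.01. It differed by −0.07 and did not pass, so the fall of Ak1 was seen on 1 of its 2 probe sets. Averaging both sets gave −0.37 (limma adjusted p = 0.0119).

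Ckm encodes the creatine kinase of muscle, which sits in part at the M-band of the sarcomere. Its brighter probe set, 1417614_at, read 6.15, 5.78, 6.04 and 6.14 in mutants, against 6.05, 6.87, 6.38 and 6.63 in controls. Control 1 fell within the mutant range, and the other 3 controls lay above every mutant. The log2 change was −0.45 (SE 0.161, limma adjusted p = 0.117, n = 4 each). Without control 1 it was −0.60 and passed (limma adjusted p = 0.0253). Both groups were close to the array medians on this probe set, and no detection call was used. The second Ckm probe set, 1444643_at, read 6.10 to 6.25 in mutants and 6.01 to 6.45 in controls and differed by −0.04, so the probe sets of Ckm disagree.

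Ckb encodes the brain-type creatine kinase, the form used by neurons, smooth muscle and many embryonic cells. Its single probe set read 9.97, 9.68, 9.43 and 9.73 in mutants, against 9.77, 10.09, 10.07 and 9.99 in controls. Mutant 1 lay above control 1, and the remaining 3 mutants lay below all controls. The log2 change was −0.28 (SE 0.114, limma adjusted p = 0.175, n = 4 each), and Ckb passed in 0 of 17 alternatives, with an unadjusted limma p of 0.0368 on all 8 arrays. Ckm and Ckb were set against each other as a log2 difference within each array. That difference averaged −3.67 ± 0.23 in mutants and −3.50 ± 0.24 in controls (SD, n = 4 each). It moved by −0.18 (exact two-sided permutation p = 0.286), within the spread between arrays. With the mean of both Ckm probe sets it moved by 0.03.

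Of the genes for glycogen breakdown, Pygm fell and Phka1 did not pass. Pygm encodes the muscle glycogen phosphorylase, whose loss in people causes McArdle disease. Its single probe set, 1448602_at, read 6.15, 6.02, 5.90 and 5.82 in mutants, against 6.39, 6.56, 6.45 and 6.44 in controls. The groups did not overlap, and the means were 5.97 ± 0.15 in mutants and 6.46 ± 0.07 in controls (SD, n = 4 each). The log2 change was −0.49 (SE 0.077, limma adjusted p = 0.00433). The mutant mean lay at the array medians. Phka1 encodes the muscle form of the regulatory alpha subunit of phosphorylase kinase. Its brightest probe set, 1435567_at, read 7.11, 7.29, 7.37 and 7.24 in mutants, against 7.44, 7.19, 7.22 and 7.24 in controls. The groups overlapped, with mutant 1 below every control and control 1 above every mutant, and with a log2 change of −0.02 and a 95% interval of −0.19 to 0.15 (n = 4 each). The other probe sets of Phka1 differed by −0.19 (1422743_at, limma adjusted p = 0.175) and 0.01 (1422744_at), and neither passed over the 34945 probe sets.

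Along glycolysis the genes were unlike each other. Pfkm encodes the muscle form of phosphofructokinase, the enzyme of the committed step. It read 9.44, 9.39, 9.44 and 9.47 in mutants, against 9.21, 9.38, 9.38 and 9.53 in controls. Both the lowest and the highest value belonged to controls, and the log2 change was 0.06 with a 95% interval of −0.10 to 0.21 (n = 4 each). Aldoa encodes aldolase A, the form of muscle and of most embryonic tissue. Its brightest probe set, 1416921_x_at, read 12.10, 11.84, 11.84 and 11.83 in mutants, against 11.93, 12.33, 12.23 and 12.18 in controls. Mutant 1 stood above control 1, while the other 3 mutants lay below every control. The log2 change was −0.26 (SE 0.094, limma adjusted p = 0.122), and without control 1 it was −0.34 and passed (limma adjusted p = 0.0368). The remaining 4 probe sets of Aldoa differed by −0.28 to −0.19, and 0 of the 5 passed. All 5 are of a type whose probes can match related transcripts.

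Pgam2 showed the largest change among the 9 measured members. It encodes the muscle form of phosphoglycerate mutase, which moves the phosphate group near the end of glycolysis. Its single probe set, 1418373_at, read 10.43, 10.47, 10.07 and 10.30 in mutants, against 11.01, 11.10, 11.04 and 11.25 in controls. The highest mutant lay below the lowest control. The means were 10.31 ± 0.18 in mutants and 11.10 ± 0.11 in controls (SD, n = 4 each), with a log2 change of −0.79 (SE 0.093, limma adjusted p = 0.00113).

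Eno3 encodes beta-enolase, the enolase of differentiated muscle, which acts on the product of phosphoglycerate mutase. Its single probe set, 1417951_at, read 10.09, 9.78, 9.38 and 9.65 in mutants, against 9.90, 10.62, 10.35 and 10.59 in controls. Mutant 1 stood above control 1, and the other 3 mutants lay below all controls. The log2 change was −0.64 (SE 0.182), but the spread within each group was wider than for Ak1 and it did not pass (limma adjusted p = 0.0582). It passed in limma without control 1 (−0.79, adjusted p = 0.0174) and without mutant 1 (−0.76, adjusted p = 0.0317). It also passed when dim genes were left out of the test (limma adjusted p = 0.0433).

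Control 1 decided several of these calls. Control 1 was the lowest control for 8 of the 9 members, with Phka1 the exception, and for 37.8% of all genes. Mutant 1 was the highest mutant for 6 of the 9, and for 38.2% of all genes. Without control 1, 6 members passed in limma, all lower, against 3 on all 8 arrays, while the share of all genes called lower was 5.28% without control 1 and 5.52% on all arrays. Control 1 was singled out as the lowest control of these members, and leaving out the lowest value raises a control mean. The added calls are therefore partly fixed by that choice and are no separate support. Without controls 1 and 3 together 5 members passed, all lower, beside 4.05% of all genes. By the same tally control 1 was the lowest control for 15 of 30 contractile genes and control 3 for the other 15. The mean log2 level of these 30 genes was 10.82 in control 1 and 10.82 in control 3, below 11.04 in control 2 and 11.08 in control 4. Control 1 was also the lowest control for 9 of 16 other glycolysis genes, 6 of 9 partner isoforms, 5 of 6 smooth muscle markers and 4 of 4 Schwann cell markers. It was so less often than over all genes for 3 of 13 hypoxia response genes and 3 of 9 neuronal markers. The same held for 3 of 9 macrophage, 2 of 7 endothelial, 1 of 7 erythroid and 1 of 7 epithelial markers. What sets control 1 low for the members and not for all lists was not tested.

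**Figure D2:**
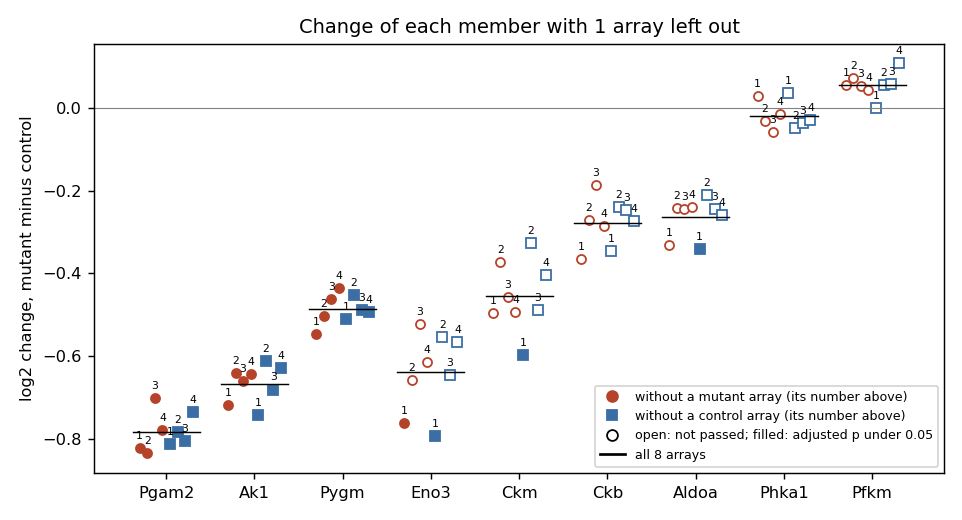
Log2 change (mutant minus control, y axis) of each measured gene when 1 of the 8 arrays is left out, with the number of that array above its point. Filled points passed an adjusted p of 0.05 in limma and open points did not. Pgam2, Ak1 and Pygm passed in all 8 fits, Eno3 passed without mutant 1 or control 1, and Ckm and Aldoa passed without control 1.

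Muscle forms were set against isoforms that other tissues use for the same step, in 7 pairs compared within arrays. Pgam1, the general phosphoglycerate mutase, read 11.72, 11.68, 11.70 and 11.77 in mutants, against 11.64, 11.68, 11.80 and 11.73 in controls. Its log2 change was 0.01 (SE 0.05), beside −0.79 for Pgam2. The within-array difference of Pgam2 and Pgam1 lay between −1.64 and −1.22 in mutants and between −0.76 and −0.48 in controls. The groups were fully apart, with an exact two-sided permutation p of 0.0286, the smallest that 4 against 4 arrays allow, which becomes 0.1 after Benjamini-Hochberg adjustment over the 7 pairs. Pygb, the brain form of glycogen phosphorylase, differed by 0.06 (SE 0.058), beside −0.49 for Pygm. The difference of Pygm and Pygb was −4.29 to −3.89 in mutants, against −3.57 to −3.41 in controls. These groups were also fully apart, with the same exact p of 0.0286 and 0.1 after adjustment.

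In the remaining pairs the groups overlapped. The difference of Aldoa and Aldoc, the aldolase of brain, moved by −0.23 (exact permutation p = 0.143). That of Pfkm and Pfkp, the platelet-type phosphofructokinase, moved by 0.11 (exact permutation p = 0.314), and that of Pfkm and the liver type Pfkl by −0.08 (exact permutation p = 0.714). The difference of Phka1 and the liver form Phka2 moved by −0.01 (exact permutation p = 1). Of the 9 measured genes on the list of partner isoforms, which leaves out Ckb, 0 passed limma in either direction, with 1 lower and 0 higher at an unadjusted p under 0.05. That gene was Ak4, a mitochondrial adenylate kinase, at −0.38 (limma adjusted p = 0.0777). Eno2, the enolase of neurons, was in no pair and differed by 0.05 (limma adjusted p = 0.838); it is named here because Eno3 had no tested partner. The median log2 change of the listed partners was 0.01, beside −0.45 for the members. Ckb, the partner of Ckm, is counted with the members in these medians. It differed by −0.28, with an unadjusted limma p of 0.0368.

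**Figure D3:**
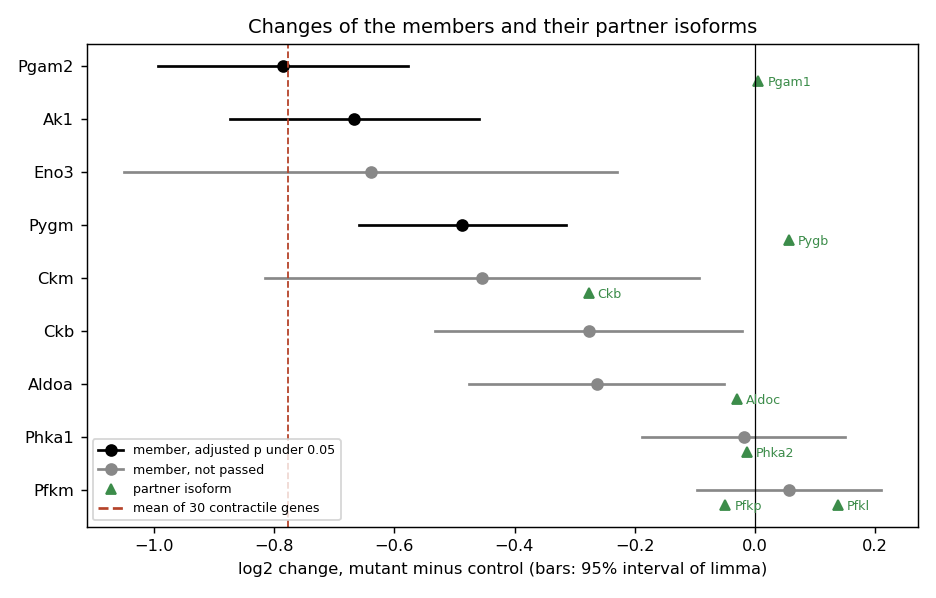
Log2 change (mutant minus control, x axis) of the 9 measured genes with the 95% interval of limma (n = 4 each), black where the gene passed and grey where it did not. Green triangles give the change of the partner isoform, and the dashed line the change of the mean over 30 contractile genes (−0.78). Pgam2 lies at the dashed line with Pgam1 at 0, and Phka1 and Pfkm lie beside their partners.

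The members were also compared with the contractile apparatus of the same buds, by subtracting the mean of 30 genes from each gene on each array. This contractile list holds sarcomere genes together with genes of the calcium store, the muscle membrane and the acetylcholine receptor. Of these 30 genes 26 fell and 0 rose, with a median log2 change of −0.78. Their mean was 10.20, 10.31, 9.93 and 10.21 in mutants, against 10.82, 11.04, 10.82 and 11.08 in controls. Ldb3, a Z-disc protein, changed by −1.41, the calcium-binding protein of the sarcoplasmic reticulum Casq2 by −0.85 and the embryonic receptor subunit Chrng by −0.70. Relative to that mean 97.4% of all genes were higher in mutants and 0.379% were lower, so a call in this comparison is what most genes receive. The same mean was subtracted from every gene, so all genes share its spread, and the moderated SE was 0.134 to 0.138 for the members. The limma p-values and intervals of this comparison therefore largely measure that shared spread and not the spread of each gene.

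Pgam2, Ak1 and Eno3 did not differ detectably from the contractile mean. Pgam2 minus the contractile mean was 0.22, 0.15, 0.14 and 0.09 in mutants and 0.20, 0.06, 0.22 and 0.17 in controls. The SD of these values was 0.055 in mutants and 0.071 in controls. The change was −0.01 with a 95% interval of −0.27 to 0.26 (limma adjusted p = 0.956). Ak1 moved by 0.11 against the contractile mean (95% interval −0.16 to 0.38) and Eno3 by 0.14 (−0.13 to 0.41). With both Ak1 probe sets averaged that value was 0.34 and passed (limma adjusted p = 0.00679).

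The other 6 members were higher in mutants relative to the contractile mean, which here means a smaller fall or none. Pfkm was higher by 0.83 (limma adjusted p = 1.91e-08) and Phka1 by 0.76 (2.41e-07). Over the 17 alternatives their largest limma adjusted p-values were 0.00113 and 0.00458. Aldoa was higher by 0.51 and Ckb by 0.50, with limma adjusted p-values of 0.000232 and 0.000319. Ckm at 0.32 (limma adjusted p = 0.0212) and Pygm at 0.29 (limma adjusted p = 0.0338) were nearer the contractile mean, and both lost the call without some single arrays. For Ckm these were mutants 1, 3 and 4 and control 1, with values of 0.22 to 0.30. For Pygm they were mutants 1 and 3 and controls 2 and 4, with values of 0.24 to 0.29. Ckm also lost its call without variance moderation (limma fit, adjusted p = 0.132).

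**Figure D4:**
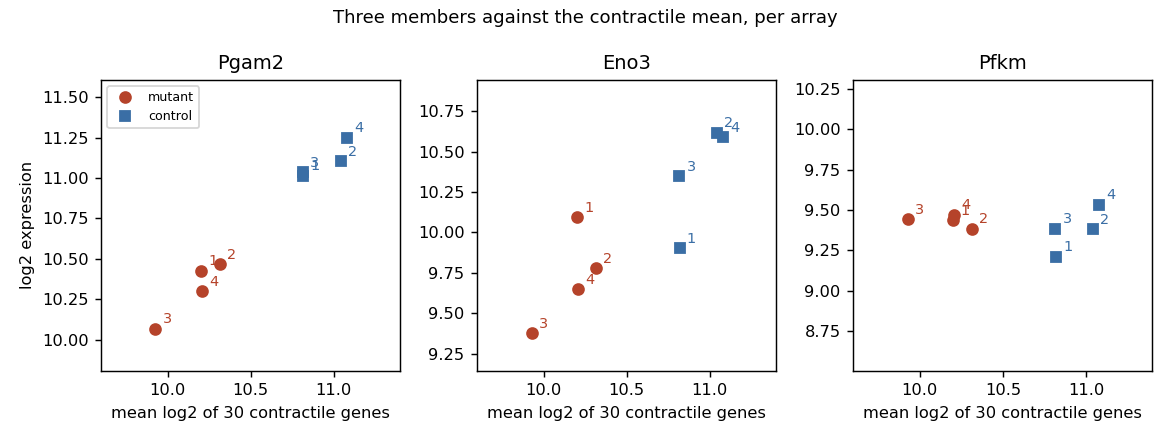
Log2 expression of Pgam2, Eno3 and Pfkm (y axis) against the mean log2 level of 30 contractile genes (x axis) on each of the 8 arrays, with array numbers beside the points. Pgam2 runs with the contractile mean on all arrays, Eno3 does so apart from mutant 1 and control 1, and Pfkm stays between 9.21 and 9.53 throughout.

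The genes whose profile over the 8 arrays lay closest to that of Pgam2 were Mybph, Myl1, Mylpf and Hrc. Likeness was the root mean square difference between array values after each gene's own mean over 8 arrays was subtracted. It was 0.045 for Mybph, 0.046 for Myl1, 0.048 for Mylpf and 0.051 for Hrc, where Pgam2 itself deviated from its mean by 0.413. These genes encode a myosin-binding protein, both fast myosin light chains and a calcium-binding protein of the sarcoplasmic reticulum. Their log2 changes were −0.82, −0.72, −0.78 and −0.80, beside −0.79 for Pgam2.

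The DNA before the start sites of the genes that fell is shown because muscle transcription factors of the MyoD family bind E-boxes (CANNTG), among them CAGCTG, and MEF2 factors bind an AT-rich site. The sequences are the 250 bases before the annotated start from RefSeq on GRCm38.p6, given 5′ to 3′ on the gene's strand, with CANNTG and MEF2 matches on either strand in capitals. Ckm is added as the muscle creatine kinase that did not pass. The windows are chr11:5803797-5804046 on the minus strand for Pgam2, chr2:32621508-32621757 on the plus strand for Ak1, chr19:6384158-6384407 on the plus strand for Pygm and chr7:19410844-19411093 on the plus strand for Ckm.
Pgam2: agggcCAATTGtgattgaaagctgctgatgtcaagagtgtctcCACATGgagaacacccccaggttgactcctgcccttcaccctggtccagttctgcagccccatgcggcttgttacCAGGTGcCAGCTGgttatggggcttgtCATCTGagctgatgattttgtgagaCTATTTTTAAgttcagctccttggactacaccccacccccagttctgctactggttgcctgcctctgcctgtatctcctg
Ak1: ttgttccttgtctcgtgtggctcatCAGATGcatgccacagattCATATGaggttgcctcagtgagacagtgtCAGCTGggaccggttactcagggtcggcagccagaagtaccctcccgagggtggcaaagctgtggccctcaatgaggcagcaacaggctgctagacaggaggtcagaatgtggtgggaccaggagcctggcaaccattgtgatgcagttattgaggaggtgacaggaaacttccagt
Pygm: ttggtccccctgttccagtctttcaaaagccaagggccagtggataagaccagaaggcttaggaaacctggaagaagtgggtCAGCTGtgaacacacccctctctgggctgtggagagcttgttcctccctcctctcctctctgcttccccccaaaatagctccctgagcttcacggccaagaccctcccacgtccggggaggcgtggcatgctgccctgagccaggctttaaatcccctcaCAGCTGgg
Ckm: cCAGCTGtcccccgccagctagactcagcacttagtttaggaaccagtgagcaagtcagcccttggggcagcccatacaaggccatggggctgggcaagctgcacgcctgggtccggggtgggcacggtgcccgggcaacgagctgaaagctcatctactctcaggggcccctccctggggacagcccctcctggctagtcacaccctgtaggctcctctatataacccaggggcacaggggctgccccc

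The Pgam2 window held 5 matches to CANNTG, of which 1 was CAGCTG, and 1 match to the MEF2 site at 80 to 71 bases before the start. The Ak1 window, before 1 of its 4 annotated starts, held 3 matches to CANNTG with 1 CAGCTG, the Pygm window 2 copies of CAGCTG, and the Ckm window 1 copy at its far end. Over the table's 32851 windows of this length, 13.0% held CAGCTG, 66.2% held CANNTG, a set that includes CAGCTG, and 2.92% held the MEF2 site. Counting genes with a match before any of their annotated starts, 5 of the 10 listed genes had CAGCTG, against 14.7% of 27025 genes. They were Ckm, Pgam2, Pygm, Phka1 and Ak1, so the motif was present before Phka1, whose level did not pass, as well as before the 3 genes that fell. MEF2 matches stood before Pgam2 and Ckb, 2 of the 10 genes, against 3.42% of the 27025. The listed genes have more annotated starts each than the genes of the table, which raises their counts by gene. Counted by window, CAGCTG was in 6 of their 20 windows, beside 13.0% of all windows. A match describes these letters and not a bound site.

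Over 7 lists of partner and pathway genes of energy supply, 13 of 87 measured genes (14.9%) fell and 3 (3.45%) rose in limma, against 5.52% of all genes lower and 4.2% higher. The lists were chosen with earlier results of these data known, so that choice can set part of the difference in shares. Of 12 measured genes of creatine and purine nucleotide metabolism 4 fell and 0 rose, with a median log2 change of −0.03. Adssl1, the muscle adenylosuccinate synthetase of the purine nucleotide cycle, changed by −0.73 (SE 0.117, limma adjusted p = 0.00477). Gamt, which completes creatine synthesis, changed by −0.66 (limma adjusted p = 0.00705), and Gatm, which starts it, by −0.30 (limma adjusted p = 0.0401). Ampd1, the adenosine monophosphate deaminase of muscle, was the other at −0.29 (limma adjusted p = 0.0497) and is named after its values were seen, since it completes the count. Ampd1 was dim, with means of 5.57 in mutants and 5.85 in controls, both below the array medians. When single arrays were dropped, Gatm kept its call only without mutant 4 and otherwise lay at −0.33 to −0.24. Ampd1 kept its call only without mutant 1 and otherwise lay at −0.32 to −0.24. When mutant 2, mutant 3 or any 1 control was dropped, 2 genes of this list fell.

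Of 14 genes of glycogen metabolism 3 fell and 0 rose, with a median of −0.10. Ppp1r3c, which targets protein phosphatase to glycogen, changed by −0.62 (SE 0.115, limma adjusted p = 0.00939). Its call held with any 1 array left out but was lost in limma without variance moderation (adjusted p = 0.0516). Ugp2, which makes the UDP-glucose used for glycogen, changed by −0.27 and Ppp1r3d, another targeting subunit, by −0.24. Ugp2 lost its call without mutants 2, 3 or 4 or controls 2, 3 or 4 (−0.28 to −0.23), and Ppp1r3d without any mutant, control 1 or control 4 (−0.26 to −0.20). The count for this list was 1 without mutant 2, 3 or 4 or control 4.

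Of 16 measured genes for the other steps of glycolysis 1 fell, 2 rose and 13 did not pass, with a median of −0.03. Ldhb, the lactate dehydrogenase subunit typical of heart, rose to 12.47 in mutants, against 11.92 in controls, a log2 change of 0.55 (SE 0.069, limma adjusted p = 0.00159) with all mutants above all controls, on a probe set whose probes can match related transcripts. Hk1, the general hexokinase, changed by −0.34 (limma adjusted p = 0.00536). Pfkfb3, which makes the activator of phosphofructokinase, was higher by 0.28 (limma adjusted p = 0.0461), a call that held only without control 3 when single arrays were dropped and otherwise lay at 0.22 to 0.31. Without control 1, 3 genes of this list were lower. Of 13 hypoxia response genes, a programme that raises many glycolytic genes, 1 rose and 0 fell, with a median of 0.02. It was Adm, encoding adrenomedullin, at 0.27, on a probe set whose probes can match related transcripts. Its call was lost without mutants 1, 3 or 4 or controls 1, 2 or 4 (0.22 to 0.28). Over the 17 alternatives the change of Adm ran from 0.22 to 0.57, and it passed in 8 of them.

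Of 16 measured genes for mitochondria and fuel use in muscle 3 fell and 0 rose, with a median of −0.07. Cox6a2 and Cox8b, subunits of cytochrome oxidase made in striated muscle, changed by −0.97 (SE 0.118, limma adjusted p = 0.00128) and −0.82 (SE 0.105, adjusted p = 0.00168). Fabp3, the fatty acid binding protein of heart and muscle, changed by −0.96 (SE 0.148, adjusted p = 0.00397). Each of these 3 genes kept its call in all 17 alternatives. Of 7 subunits of AMP-activated protein kinase 2 fell and 0 rose. They were Prkag3, the gamma subunit of skeletal muscle, at −0.77 (limma adjusted p = 0.00896), and Prkaa2, a catalytic subunit, at −0.43 (limma adjusted p = 0.00322). The call of Prkag3 was lost without variance moderation (limma fit, adjusted p = 0.0535). Both were dim, with mutant means of 5.20 and 5.73 below the array medians. Prkab2 differed by −0.17 and passed without control 1 (−0.24).

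Markers of other cells and regulators of the muscle lineage moved on the same arrays. Beside their counts, limma called 5.52% of all genes lower and 4.2% higher on all 8 arrays. Of 9 neuronal markers 6 fell and 2 rose in limma. The 6 falls ran from −1.95 (Stmn2) to −0.42 (Syt1), and the rises were 1.63 for Nefl and 1.53 for Nefm. The mean log2 level of the 9, which joins these opposite changes, was 6.998 to 7.19 in mutants and 7.39 to 7.65 in controls. Of 6 smooth muscle markers 2 fell, at mean levels of 8.21 to 8.51 in mutants and 8.54 to 8.74 in controls, or 1 without mutant 4 or control 2. The 2 were Tagln at −0.88 and Acta2 at −0.26. Rgs5 (−0.79), Cnn1 (−0.16), Pdgfrb (0.09) and Myh11 (0.06) did not pass. Macrophage markers fell in 3 of 9 cases, at mean levels of 7.06 to 7.48 in mutants and 7.47 to 7.62 in controls. That count was 0 without mutant 3, mutant 4 or control 2, and 1 without mutant 2 or control 4. Schwann cell markers fell in 2 of 4 cases, at 8.20 to 8.57 in mutants and 8.60 to 8.97 in controls, with 0 without mutant 4 and 1 without mutant 2, mutant 3, control 2 or control 4. Endothelial markers rose in 2 of 7 cases, at mean levels of 7.93 to 8.21 in mutants and 7.70 to 7.79 in controls, and 1 of 5 cartilage markers rose, at 7.04 to 7.16 in mutants and 6.84 to 6.99 in controls. Of 7 erythroid and 7 epithelial markers, 0 passed limma. At an unadjusted p under 0.05, 0 erythroid and 2 epithelial markers were lower. The erythroid mean was 8.75 to 9.04 in mutants and 8.86 to 9.13 in controls. Of 14 regulators of the muscle lineage 5 fell and 1 rose, with 3 falling without mutant 2, mutant 3 or control 2. The 5 falls ran from −1.27 (Myf6) to −0.24 (Mef2d), and the rise was Tcf21 at 0.67. Ckb and Ak1 are expressed in nerve cells and Ak1 in red cells as well, and the part of these cells in their values was not tested.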

How the data were processed

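Affymetrix arrays of 8 tongue buds were analysed, 4 mutant and 4 control, grouped by the genotype in the labels. The deposited values are log2 expression per probe set, made by the authors with RMA, which corrects background, equalises the arrays and summarises probes, per the submitters' processing notes. The RMA version is not given in the sources used here. Array medians were 5.96 to 6.01, so a shift shared by all genes would not be seen, and the number of arrays limits the precision. Of 45101 probe sets, 34945 named 1 gene, 932 several and 9211 none, and the rest were array controls. RefSeq identifiers matched 34741 of the 34945, and gene symbols were left as annotated.

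Each gene was read from its brightest probe set over the 8 arrays. A linear model with moderated variances (limma 3.58.1, R 4.3.3) was fitted to all 18193 genes, with Benjamini-Hochberg adjustment and a threshold of 0.05, and was tested on simulated data. The 7 isoform pairs with values were compared by exact two-sided permutation. A limma fit of the same form was made after subtracting the mean of 30 contractile genes, and its moderated spread includes that of this mean for every gene. Promoter motifs were searched on both strands.

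Named genes were the members, the partner of each pair, the 3 genes with the smallest p of each energy or contractile list, and the 4 profiles nearest to the called member with the largest fall. Genes named from the lists of cell markers and muscle regulators were added after seeing the data. Members and lists were chosen with earlier results of these data known. Replicate numbers did not pair the arrays: deviations of same-numbered arrays correlated at −0.40, 0.02, −0.18 and −0.16. There were 17 alternatives, covering normalization, pairing, probe set choice, arrays left out, a filter on dim genes and variance moderation. Those for single probe sets and for the other lists were added after seeing the data.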

Additional observations from a re-analysis of the deposited data

Results flagged for a closer look

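In 6 of 106 groups of 4 arrays, 1 array stood apart from the other 3, where chance gives about 1 in 20. The count is thus near what chance gives, and some groups share a gene and are not independent. Each had a gap to its nearest neighbour, divided by the range, above Dixon's 95% critical value. Aldoa read 12.10 in mutant 1, the highest mutant, beside 11.83 to 11.84 in the other mutants (gap 0.954 of the range). Another Aldoa probe set, 1433604_x_at, read 10.77 in control 1, beside 11.07 to 11.11 in the other controls. Ppp1r3c read 8.49 in control 1, the lowest control, beside 8.78 to 8.83 in the rest. Ldhb read 11.83 in control 1, beside 11.95 in each of the other controls. The log2 difference of Phka1 and Phka2 was −0.61 in control 1, the highest control, beside −0.94 to −0.89. Aldoc read 6.88 in control 3, the highest control, beside 6.72 to 6.73.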

How the results depend on the processing

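Pgam2 (−0.86 to −0.70), Pygm (−0.55 to −0.43) and Ak1 (−0.80 to −0.37) passed in all 17 alternatives, Ckb, Pfkm and Phka1 in 0. No called change turned its sign. Some results that did not pass took both signs, among them Pfkm (−0.02 to 0.11), Phka1 (−0.07 to 0.04) and the differences of Ckm and Ckb (−0.38 to 0.03), Pfkm and Pfkl (−0.20 to 0.06) and Phka1 and Phka2 (−0.08 to 0.08). Against 3 members lower on all arrays, 3 to 6 were lower with 1 array left out and 5 without controls 1 and 3. For member probe sets, 3 in the full fit, the counts were 3 to 6 and 5, with 1 under a replicate block, where Ak1 and Pygm missed the threshold among probe sets. Other energy genes called lower, 13 in the full fit, were 8 with the replicate block, where Ppp1r3c missed the threshold (limma adjusted p = 0.0572), and 9 to 14 with 1 array left out. Those called higher, 3 in the full fit, were 1 with the block, 1 without variance moderation, 1 without controls 1 and 3, and 1 to 3 with 1 array left out. Members higher relative to the contractile mean, 6 in the full fit, were 4 to 6 with 1 array left out. The 1768 genes called in all became 966 with the replicate block and 1143 to 1583 with 1 array left out. With 1 array left out, the differences ranged from −0.85 to −0.71 for Pgam2 and Pgam1 and from −0.59 to −0.46 for Pygm and Pygb, each with an exact permutation p of 0.0286 and 0.1 after adjustment over the pairs. With the replicate block their exact p was 0.125, the smallest that 4 pairs allow. Aldoa has no value without probe sets that can match related transcripts. The cause of these changes was not tested. Ckm and Pygm lie near the array medians, where signal over background limits the folds.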
